A study of Homo sapiens with 9 samples.

Results

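The 10 genes described here encode transporters that carry amino acids across the plasma membrane: SLC7A11, SLC7A5, SLC3A2, SLC7A1, SLC38A1, SLC38A2, SLC1A4, SLC1A5, SLC6A9 and SLC43A1. They were chosen by gene name, with earlier results of these data known. Every non-control probe that carries 1 of these names was read, which gave 14 of the 50599 probes on the array and 10 of its 36337 gene names. RNA came from RKO, a colorectal cancer cell line, and was read on 9 Agilent expression arrays (SurePrint G3 Human GE v2), each with 1 dye. The cells of 4 groups were transfected for 72 h with a control siRNA (siCONT) or with siRNAs against UHRF1 (siUHRF1) and were then given ethanol or 300 nM trichostatin A (TSA), an inhibitor of histone deacetylases, for a further 24 h. Each of these groups (siCONT, siCONT + TSA, siUHRF1 and the combination, siUHRF1 + TSA) held 2 arrays, and in the depleted groups replicate 1 carried siUHRF1-1 and replicate 2 carried siUHRF1-2. A further array held RNA from RKO cells treated with 1 µM 5-aza-dC, an inhibitor of DNA methyltransferases, for 72 h with no siRNA. UHRF1 reads hemimethylated DNA and brings the maintenance methyltransferase to it, and the knockdown was transient. Nothing in the labels says that replicates came from separate cultures, so p-values measure the spread between these arrays, which may be technical. In the depleted groups that spread includes the difference between siUHRF1-1 and siUHRF1-2.

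Amino acid transporters differ in what they carry and in what drives them. SLC7A11 and SLC7A5 are light chains that work only when joined to the heavy chain SLC3A2, the former exchanging glutamate for cystine, the raw material of glutathione, and the latter exchanging glutamine for leucine and other large neutral amino acids, which activate the kinase complex mTORC1. Cells that run short of amino acids raise the translation of the transcription factor ATF4, and many transporter genes, together with genes of serine and asparagine synthesis, are known ATF4 targets.

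A single slide and a single scan held all 8 siRNA arrays. Their 75th percentiles of signal ran from 245 to 338, and 43.7% to 46.6% of probes were well above background. Values below are log2 signals relative to the 75th percentile of the same array, so they compare arrays for 1 probe and not the levels of different genes. For a gene with several probes, the brightest probe represents the gene, and all 10 of these were well above background on all 9 arrays. A gene was called where limma gave a p below 0.05 after Benjamini-Hochberg adjustment over all 23727 probes tested, with 1 estimate of spread shared by the groups. The difference between the siRNAs against UHRF1 therefore enters the p-values of every comparison, also that of TSA alone. Over probes above background on all 8 arrays, replicates differed by a median of 0.25 in siUHRF1 and 0.17 in siUHRF1 + TSA. The medians were 0.060 in siCONT and 0.065 in siCONT + TSA. Ethanol arrays were in slide row 1 and TSA arrays in row 2, with siCONT in columns 1 and 2 and siUHRF1 in columns 3 and 4, so position and treatment cannot be told apart. In bulk RNA, fewer cells and less RNA per cell also cannot be told apart.

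Before the members, the knockdown and the identity of the cells were examined. UHRF1 read 2.69 on both siCONT arrays and 0.36 and 0.075 on the siUHRF1 arrays, a log2 fold change of -2.47 (standard error 0.14, adjusted p = 0.00238 from limma). Under TSA it read 2.87 and 2.86 without depletion and -0.34 and -0.62 with it. Of 9 epithelial and colorectal markers, KRT8, KRT18 and CDX2 were well above background on all 8 siRNA arrays, EPCAM was so on 1 of them, and CDH1, VIL1 and CDH17 on none. Neither siCONT array detected KRT19 or KRT20 well above background. Of 10 markers of other cell types, CD68, COL1A1 and VIM were well above background on all 8 arrays and PTPRC on 5. CD3E, PECAM1 and ALB were so on none of the 8, and COL1A2 and DCN on the 2 siUHRF1 + TSA arrays. VIM rose with TSA (log2 fold change 2.88, adjusted p = 0.000932 from limma), and in siUHRF1 + TSA KRT19 was at least 4.26-fold, COL1A2 at least 4.06-fold and DCN at least 1.23-fold higher than in siCONT, and COL1A1 and KRT18 rose by 1.67 and 0.81. For such limits a dim array was given the higher of its faintest detected signal and the signal of the probe itself, and the part of these markers in the results on transporters was not tested.

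RefSeq windows from 250 bases before to 50 bases after a listed start of a gene, which can have several (GRCh38.p14), matched 9 of the 10 members, all but SLC7A11, with 16 windows. They were searched on both strands for the letters TGATGNAA, the core of the C/EBP-ATF element through which ATF4 and its C/EBP partners act. A match was present in 5 of the 16 windows, 1 in each of 5 members, and in 3.62% of all 35116 windows of that length. The stretches are shown because most of the 10 transporter genes were called lower under TSA. A link between a match and that fall was not tested. Capitals mark the match, and each is written on the strand of the gene. They lie at chr11:62881726-62881748 for SLC3A2, chr13:29595664-29595691 for SLC7A1, chr12:46266503-46266530 for SLC38A1, chr2:64989382-64989409 for SLC1A4 and chr19:46784894-46784921 for SLC1A5.
SLC3A2: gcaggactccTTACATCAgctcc
SLC7A1: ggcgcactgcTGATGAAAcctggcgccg
SLC38A1: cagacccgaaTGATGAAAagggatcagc
SLC1A4: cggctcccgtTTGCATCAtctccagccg
SLC1A5: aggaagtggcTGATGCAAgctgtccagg

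Relative to the start of its own window, the match began 4 bases before it in SLC38A1, 7 before it in SLC1A4 and 97 before it in SLC1A5, and 7 and 37 bases after it in SLC7A1 and SLC3A2. That start is the outer end of the gene in SLC7A1 and lies inside the gene's span in the other 4. In SLC3A2 and SLC1A4 it reads as the reverse complement. The core of the antioxidant response element, TGACNNNGC, was present in 4 of the 16 windows (SLC7A5, SLC3A2, SLC7A1 and SLC1A5) and in 13.3% of all windows, and the E-box CACGTG in 3 (SLC7A5, SLC1A5 and SLC43A1) and in 7.26% of all windows. None of these matches overlapped another. A match describes letters in a window and is not evidence of binding.

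Cells given TSA held less RNA of most of these transporters than cells given ethanol. In siCONT + TSA, 8 of the 10 genes fell against siCONT, 0 rose, and SLC7A1 and SLC38A2 were lower on both arrays without passing the test. The median log2 fold change of the 10 genes was -0.86, against 0.082 over all 17738 genes tested, of which 3.86% were called lower. Both TSA arrays lay below both siCONT arrays for 10 of the 10, as they did for 29.8% of all genes. The plot of values by array shows each gene in the 5 conditions.

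**Figure D1:**
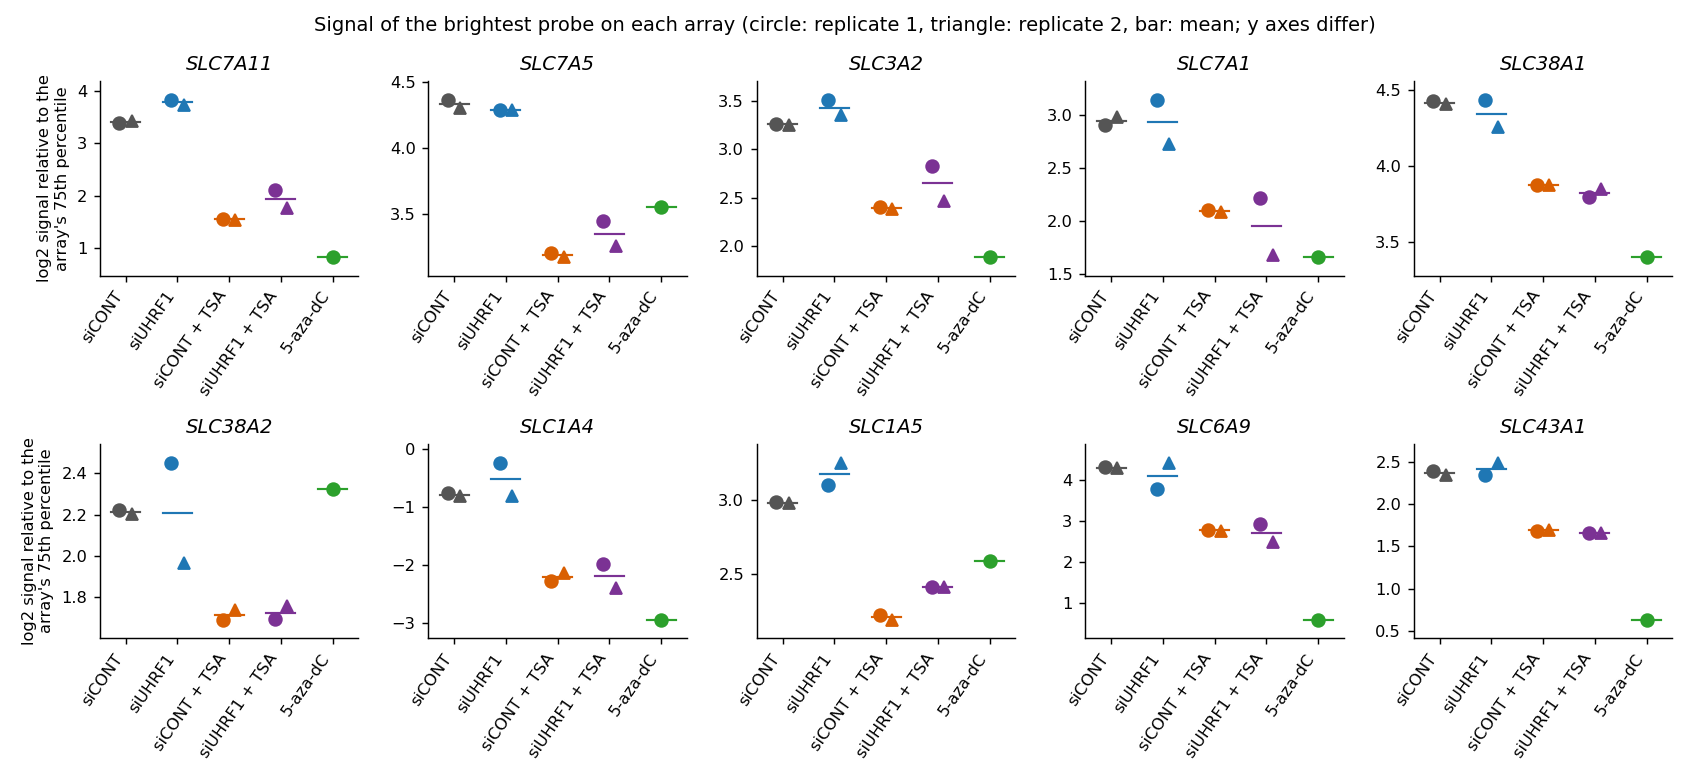
Each panel plots the log2 signal of the brightest probe of a gene relative to the 75th percentile of the array (y axis, with its own range in each panel) in the 5 conditions (x axis), with a circle for replicate 1, a triangle for replicate 2 and a bar at the mean. The TSA arrays lie below the siCONT arrays in all 10 panels, and the single 5-aza-dC array lies below both siCONT arrays in all panels but that of SLC38A2.

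SLC7A11, the cystine and glutamate exchanger at chr4:138164097-138242349 (GRCh38.p14), showed the widest range over the 4 siRNA groups. It read 3.39 and 3.42 in siCONT, 3.83 and 3.74 in siUHRF1, 1.55 and 1.54 in siCONT + TSA, and 2.11 and 1.76 in siUHRF1 + TSA. The 4 TSA arrays lay well below the 4 ethanol arrays, and within each treatment the depleted arrays lay above the others. With TSA alone SLC7A11 fell by 1.86 (log2, standard error 0.13; limma adjusted p = 0.00442), which is 3.64-fold. In siUHRF1 + TSA against siCONT it fell by 1.47 (adjusted p = 0.00144 from limma).

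SLC3A2, the heavy chain shared by both light chains at chr11:62856109-62888860, read 3.27 and 3.26 in siCONT, 3.51 and 3.35 in siUHRF1, 2.40 and 2.38 in siCONT + TSA, and 2.83 and 2.47 in siUHRF1 + TSA. It fell by 0.87 with TSA alone (standard error 0.14, adjusted p = 0.0195 from limma) and by 0.61 in the combination (adjusted p = 0.0265). All TSA arrays were lower than all ethanol arrays. SLC7A5, the light chain for leucine at chr16:87830023-87869507, read 4.37 and 4.30 in siCONT, 4.29 on both siUHRF1 arrays, 3.20 and 3.17 in siCONT + TSA, and 3.44 and 3.25 in siUHRF1 + TSA. Its log2 fold change was -1.15 with TSA alone (standard error 0.10, adjusted p = 0.00681 from limma) and -0.99 in the combination (adjusted p = 0.00222), and its TSA arrays were all below its ethanol arrays.

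SLC43A1, at chr11:57484534-57515702, carries large neutral amino acids by facilitated diffusion and needs no heavy chain. It read 2.39 and 2.34 in siCONT, 2.34 and 2.49 in siUHRF1, 1.69 on both siCONT + TSA arrays, and 1.66 and 1.65 in siUHRF1 + TSA. The ethanol groups overlapped each other and stood apart from the TSA groups, which differed by less than 0.1. SLC43A1 fell by 0.67 with TSA alone (standard error 0.094, adjusted p = 0.015 from limma) and by 0.70 in the combination (adjusted p = 0.00501).

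SLC7A1 imports arginine, lysine and ornithine and lies at chr13:29509414-29595688. Its values were 2.91 and 2.98 in siCONT, 3.15 and 2.73 in siUHRF1, 2.10 and 2.08 in siCONT + TSA, and 2.22 and 1.68 in siUHRF1 + TSA. Both depleted groups were spread widely, with siUHRF1-1 above siUHRF1-2 each time. The change with TSA alone was -0.85 and did not pass (standard error 0.21, adjusted p = 0.0551 from limma), although it passed in 12 of 21 alternatives, among them normexp background correction (-1.02, adjusted p = 0.0396), the replicate block (adjusted p = 0.0497), the siRNA as a term and the fits without any 1 array of siUHRF1 or siUHRF1 + TSA (adjusted p 0.0373 to 0.0399). Those 12 include limma and the methods' t-test at an unadjusted p below 0.05. In siUHRF1 + TSA against siCONT SLC7A1 fell by 1.00 (adjusted p = 0.0209).

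SLC1A4 and SLC1A5 exchange alanine, serine and cysteine, and SLC1A5 is a main importer of glutamine in many tumour cells. SLC1A5, at chr19:46774883-46788594, read 2.98 on both siCONT arrays, 3.1 and 3.25 in siUHRF1, 2.22 and 2.19 in siCONT + TSA, and 2.41 on both siUHRF1 + TSA arrays. It fell by 0.77 with TSA alone (standard error 0.094, adjusted p = 0.0116 from limma) and by 0.57 in the combination (adjusted p = 0.00943). The 4 groups did not overlap, although the order within each treatment, siUHRF1 above siCONT, was not called. SLC1A4, at chr2:64988479-65023865, read -0.77 and -0.82 in siCONT, -0.24 and -0.81 in siUHRF1, -2.27 and -2.15 in siCONT + TSA, and -1.99 and -2.40 in siUHRF1 + TSA. Its probe lay below the 75th percentile throughout, and the change with TSA alone depended on how the background was taken off. It was -1.42 as measured (standard error 0.22, adjusted p = 0.018 from limma) and -0.57 with normexp (adjusted p = 0.138). In the combination it fell by 1.40 (adjusted p = 0.00794), and with normexp by 0.83 (adjusted p = 0.0348).

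SLC38A1 and SLC38A2 import glutamine and alanine together with sodium and are neighbours on chromosome 12. Their means over the 4 siRNA groups spanned the narrowest ranges of the 10 genes, 0.59 and 0.50. SLC38A1, at chr12:46183063-46269043, read 4.42 and 4.41 in siCONT, 4.43 and 4.25 in siUHRF1, 3.87 on both siCONT + TSA arrays, and 3.80 and 3.85 in siUHRF1 + TSA. Its log2 fold change was -0.54 with TSA alone (standard error 0.099, adjusted p = 0.0255 from limma) and -0.59 in the combination (adjusted p = 0.00974). A further probe gave -0.62 in both comparisons and was called in both. The remaining SLC38A1 probe was well above background on 1 array of each group but siCONT, and on the 5-aza-dC array, and entered no siRNA comparison.

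SLC38A2, at chr12:46358188-46372773, read 2.22 and 2.20 in siCONT, 2.45 and 1.97 in siUHRF1, 1.69 and 1.74 in siCONT + TSA, and 1.69 and 1.76 in siUHRF1 + TSA. The TSA arrays were below the siCONT arrays, but the siUHRF1 arrays reached from above siCONT to well below it. The change was -0.50 with TSA alone (standard error 0.16, 95% interval -0.89 to -0.10, adjusted p = 0.105 from limma) and -0.49 in the combination (adjusted p = 0.0777). Its other probe read 1.52 and 1.60 in siCONT and 1.44 and 1.42 in siCONT + TSA, a log2 fold change of -0.13 with an interval of -0.37 to 0.11. The brightest probe of SLC38A2 passed without either siUHRF1 array, both with TSA alone (adjusted p = 0.0161) and in the combination (adjusted p = 0.00884).

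SLC6A9 takes up glycine with sodium and chloride and lies at chr1:43996483-44031462. It read 4.32 and 4.31 in siCONT, 3.79 and 4.43 in siUHRF1, 2.80 and 2.77 in siCONT + TSA, and 2.94 and 2.49 in siUHRF1 + TSA. Its log2 fold change was -1.52 with TSA alone (standard error 0.24, adjusted p = 0.018 from limma) and -1.59 in the combination (adjusted p = 0.00688). The TSA arrays sat below every ethanol array, and on this probe the siRNAs against UHRF1 lay on either side of siCONT. Its other probe, whose 60 bases span 148 bases of the genome (hg19 in the file headers), read -0.93 and -0.77 in siCONT, -0.96 and -1.13 in siUHRF1, both below siCONT, and -2.71 and -2.66 in siCONT + TSA. With TSA alone it showed a log2 fold change of -1.84 (adjusted p = 0.00442). The 2 probes were called in the same direction in each comparison that involved TSA against ethanol.

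In siUHRF1 + TSA, 9 of the 10 genes fell against siCONT and SLC38A2 did not pass, although it passed with the siRNA as a term, added after the data were seen (adjusted p = 0.044), or with a trended prior (adjusted p = 0.0414). Their median log2 fold change was -0.85, against 0.067 over all genes, of which 8.08% were called lower. The arrays of the groups did not overlap for 10 of the 10, with the combination lower, as for 28.6% of all genes. Among depleted cells, siUHRF1 + TSA against siUHRF1, 9 of the 10 fell again, against 5.49% of all genes, and non-overlapping lower values were found for 10 of 10 against 20.3%. With each siRNA compared only with itself, the value under TSA was below that in ethanol in 20 of 20 cases, by 0.21 for SLC38A2 with siUHRF1-2 at the least and by 1.98 for SLC7A11 with siUHRF1-2 at the most. The brightest probe of SLC6A9 gave -0.85 with siUHRF1-1 and -1.94 with siUHRF1-2, whereas its other probe gave -1.56 and -1.65. The 3 comparisons share arrays, so their counts are not independent of each other.

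**Figure D2:**
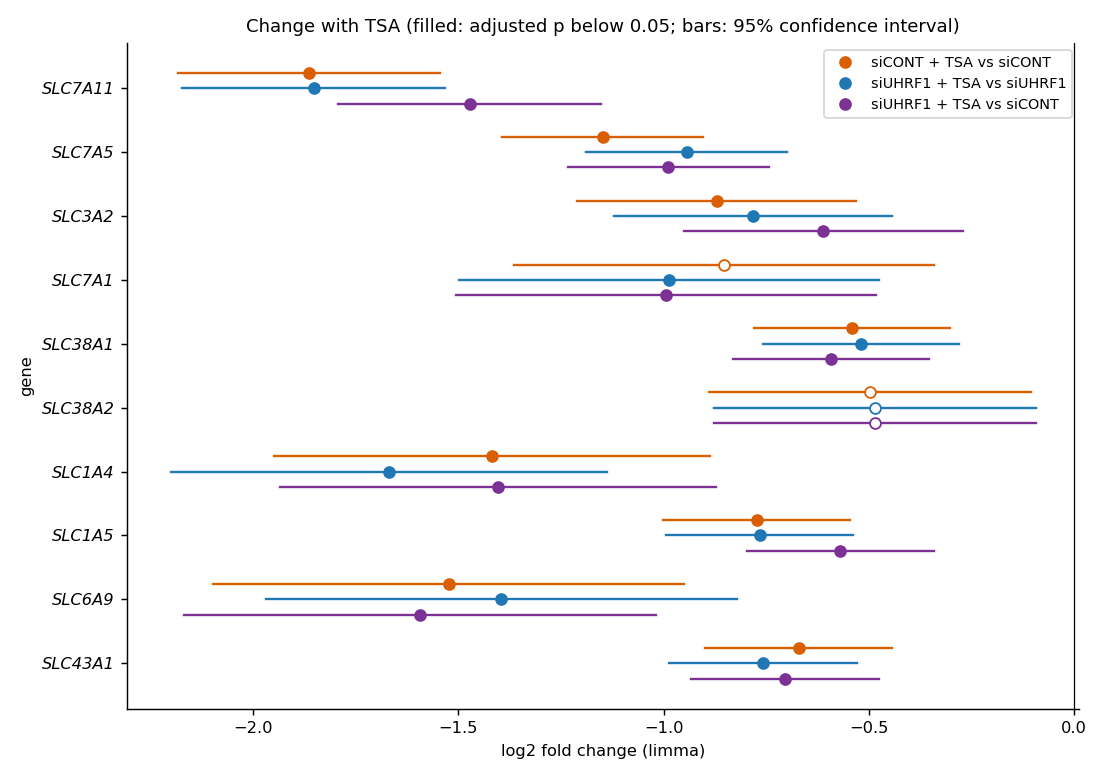
Log2 fold changes from limma (x axis) are drawn for each gene (y axis) in the 3 comparisons of TSA with ethanol, with bars for the 95% confidence interval and filled points for an adjusted p below 0.05. Every point lies below 0, from -1.86 for SLC7A11 in siCONT + TSA to -0.48 for SLC38A2, whose points are open in all 3 comparisons, as is that of SLC7A1 in siCONT + TSA.

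The number of calls depended on the arrays more than the direction did. With TSA alone, 0 members were called without siCONT replicate 1, and 1, SLC7A11, was called without siCONT replicate 2 or without either siCONT + TSA array, settings in which 0.181% to 0.384% of all probes were called. In the combination, 3 were called without siCONT replicate 1 (SLC7A11, SLC7A5 and SLC6A9) and 4 without siCONT replicate 2, which added SLC43A1, beside 7.11% and 6.98% of all probes, against 23.2% with all arrays and 10.4% for TSA alone. Without either siUHRF1 array 19.7% of all probes were called with TSA alone and 32.6% in the combination. With scaling on the spike-in probes, 5 members were called with TSA alone (2.97% of all probes) and 6 in the combination (13.3%), and all values stayed below 0. With normexp 7 members were called with TSA alone (1.77% of all probes) and 7 in the combination (7.14%). SLC1A4 and SLC38A1 (adjusted p = 0.0526 from limma) lost the call with TSA alone, and SLC3A2 (0.0735) and SLC38A1 (0.0503) lost it in the combination. SLC3A2 also lost it in the combination without either siCONT + TSA array, and SLC3A2 and SLC7A1 did without siUHRF1 + TSA replicate 2.

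UHRF1 depletion by itself left the 10 transporters without a called change. In siUHRF1 against siCONT, 0 of 10 passed in limma, while 0.637% of all genes did, and 1 gene, SLC7A11, had an unadjusted p below 0.05, as did 8.93% of all genes. The median log2 fold change was 0.026, with 5 genes above 0. For SLC7A11 the value was 0.38 (95% interval 0.06 to 0.70, adjusted p = 0.457), and the values of the other members lay between -0.20 (SLC6A9) and 0.27 (SLC1A4). Both siUHRF1 arrays lay on 1 side of both siCONT arrays for 4 of the 10 genes, SLC7A11, SLC7A5, SLC3A2 and SLC1A5, and for 37.3% of all genes. Replicates of siUHRF1 differed by a median of 0.25 over probes above background on all 8 arrays, and those of siCONT by 0.060.

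Under TSA, depletion again gave 0 calls among the 10, against 3.81% of all genes. SLC7A11 was the 1 gene with an unadjusted p below 0.05 (17.9% of all genes), at 0.39 (95% interval 0.07 to 0.71, adjusted p = 0.202 from limma). The groups did not overlap for 6 of 10 members and for 54.8% of all genes. Of these 6, SLC7A11, SLC7A5, SLC3A2 and SLC1A5 were higher in siUHRF1 + TSA than in siCONT + TSA, by 0.39, 0.16, 0.26 and 0.20, and SLC38A1 and SLC43A1 were lower, by less than 0.1. When the siRNA was added as a term after the data were seen, 1 member, SLC7A11, was called in this comparison (adjusted p = 0.048), as were 11.3% of all probes.

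The effect of depletion with TSA minus that without TSA was tested as an interaction. It was called for 0 of 10 members, and for 0.361% of all genes. At an unadjusted p below 0.05 the counts were 0 of 10 and 4.94%. The differences ran from -0.25 for SLC1A4 (95% interval -1.0 to 0.50) to 0.20 for SLC7A5 (-0.14 to 0.55). For SLC7A11 the difference was 0.01 (-0.44 to 0.46). The intervals reach both sides of 0, which does not show that the effects were equal.

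**Figure D3:**
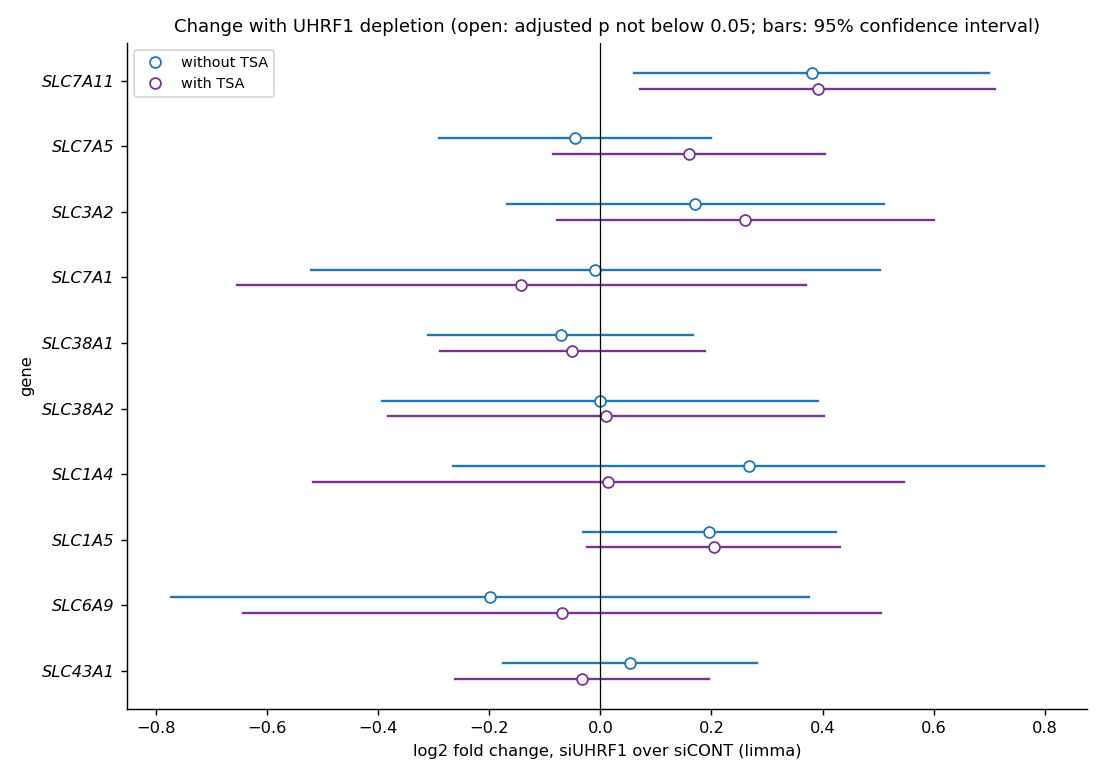
Log2 fold changes of UHRF1 depletion from limma (x axis) without TSA and with TSA are drawn for each gene (y axis), with bars for the 95% confidence interval. All points are open because no adjusted p was below 0.05, and the intervals of SLC7A11 are the 2 that do not reach 0, at 0.38 without TSA and 0.39 with TSA.

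The single 5-aza-dC array lay below siCONT for 9 of the 10 genes, and all 9 were called by a fit that assumes this array varies like the others. That share stands beside 24.1% of all 20194 genes called lower and 24.8% called higher. The array lay on another slide, was read in another scan and held cells without siRNA, so the drug, the slide and the scan cannot be told apart. The 75th percentile of its signal was 822. SLC6A9 read 0.60 against 4.32 and 4.31 in siCONT, a log2 fold change of -3.71 (standard error 0.30, adjusted p = 0.000298 from limma), or 13.1-fold. Its other probe was too dim with 5-aza-dC to be told from background and was at least 15.2-fold lower than in siCONT, a limit set by the probe's own signal.

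SLC7A11 read 0.83 with 5-aza-dC, a log2 fold change of -2.58 (standard error 0.16, adjusted p = 0.000122 from limma). SLC1A4 read -2.94 and changed by -2.15, and SLC43A1 read 0.64 and changed by -1.73. These 4 genes were the lowest relative to siCONT. SLC3A2 (1.89), SLC7A1 (1.66) and SLC38A1 (3.40) changed by -1.37, -1.28 and -1.01. SLC7A5 read 3.55 and changed by -0.79, and SLC1A5 read 2.59 and changed by -0.39 (adjusted p = 0.033). With normexp background correction neither SLC7A5 (-0.52, adjusted p = 0.0897) nor SLC1A5 (-0.27, adjusted p = 0.31) passed, and SLC1A5 did not pass without any 1 of the siCONT or siCONT + TSA arrays (adjusted p 0.0765 to 0.125). For SLC38A1 the further probe gave -0.55 and was called. The dim one, below background in siCONT, was at least 1.52-fold higher and was not called (adjusted p = 0.563).

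SLC38A2 read 2.32 with 5-aza-dC, a difference of 0.11 from siCONT that was not called (adjusted p = 0.672 from limma) and that became -1.77 when the arrays were scaled on spike-in probes. That scaling moved the median of all probes in this comparison from 0.012 to -1.87, and with it 10 members were called and 87.7% of all probes. The plot of 5-aza-dC under both scalings shows the shift to be the same for each gene.

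**Figure D4:**
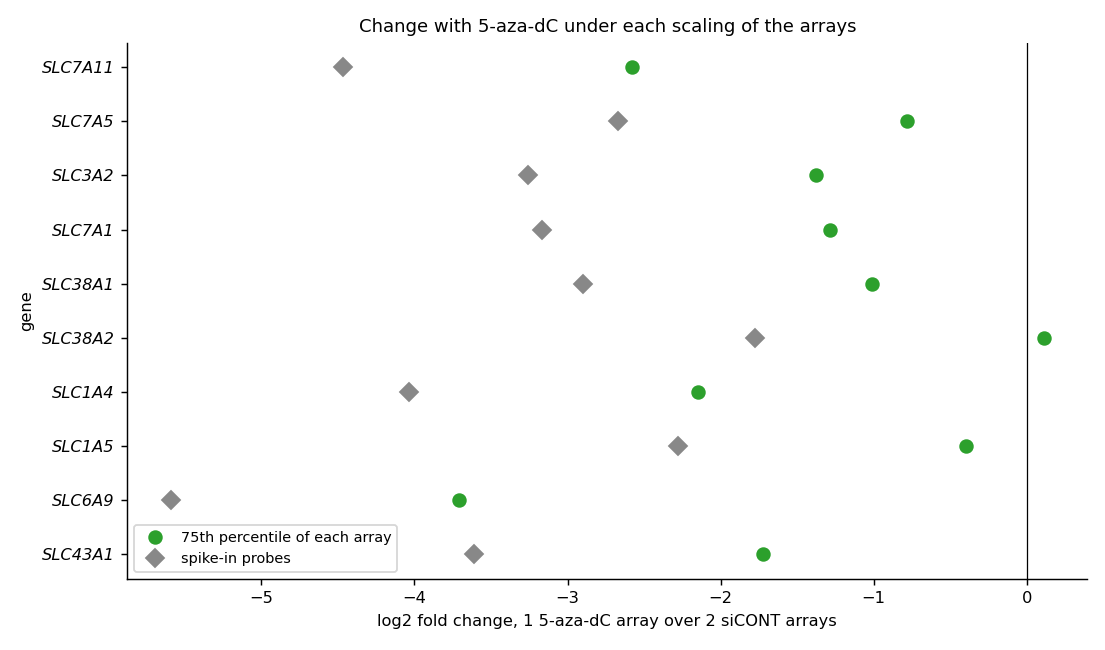
Log2 fold changes of the 5-aza-dC array over the mean of the 2 siCONT arrays (x axis) are drawn for each gene (y axis) with arrays scaled on their 75th percentile (circles) or on spike-in probes (diamonds). With the first scaling SLC38A2 lies at 0.11 and the other genes between -3.71 and -0.39, whereas with the second all 10 genes lie below 0, from -5.59 to -1.77.

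Other genes of amino acid handling were read from lists to place the 10 transporters among them. Like the 10 members, the lists were chosen with earlier results of these data known, so differences between lists are descriptions. Of 40 other amino acid transporters, 17 passed the filter on dim probes in the siRNA groups. None of these 17 was called lower in siCONT + TSA or in siUHRF1 + TSA against siCONT, beside 3.86% and 8.08% of all genes. Their medians were 0.10 and 0.022. With TSA alone 1 rose, the lysosomal transporter SLC36A4 (log2 fold change 0.75, adjusted p = 0.0403 from limma), beside 6.97% of all genes. In the combination 3 rose, beside 16.1% of all genes. They were the glutamate transporter SLC1A7, at least 2.94-fold higher, SLC36A1 at 0.71 and SLC38A10 at 0.59. In fits without a siCONT array the calls of both comparisons were lost, and in fits without a siCONT + TSA array the call with TSA alone was lost. These fits also called fewer of all probes than the fit with all arrays. Without either siUHRF1 array the counts were 4 and 5, in fits that called 19.7% and 32.6% of all probes. Without either siUHRF1 + TSA array 2 were called with TSA alone, in fits that called a share of all probes close to the 10.4% with all arrays, and in the combination 1 was called without either siCONT + TSA array (15% of all probes) or without siUHRF1 + TSA replicate 1 (16.3%). With 5-aza-dC, 9 of 24 tested rose and 6 fell, beside 24.8% and 24.1% of all genes.

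Most tested genes of the amino acid response were also called lower under TSA. Of 20 genes on that list, 18 were tested, and with TSA alone 13 fell and 0 rose, with a median of -0.88, beside 3.86% of all genes called lower. In the combination 15 fell and 0 rose, with a median of -1.16, beside 8.08%. In siUHRF1 against siCONT limma called 0, beside 0.637% of all genes, and 3 of 18 had an unadjusted p below 0.05, beside 8.93%. DDIT3, a transcription factor of prolonged stress, fell by 1.82 with TSA alone (adjusted p = 0.0116 from limma) and by 2.46 in the combination. The mTORC1 inhibitor DDIT4 fell by 1.66 and 2.22, and the pseudokinase TRIB3 by 1.63 and 1.86. NUPR1, a stress-induced nuclear protein, was not well above background on either siCONT + TSA array and was at least 15.0-fold lower there than in siCONT, whereas it fell by 1.68 in the combination, where it was at least 4.68-fold higher than in siCONT + TSA (adjusted p = 0.00644). It was the 1 gene of the list called between those groups. The probe of ATF4 itself changed by -0.15 with TSA alone (adjusted p = 0.523) and fell by 0.56 in the combination (adjusted p = 0.0346). With TSA alone, 1 gene was called without any 1 of the siCONT or siCONT + TSA arrays, in fits that called 0.181% to 0.384% of all probes. In the combination 9 were called without either siCONT array, beside 7.11% and 6.98%. With 5-aza-dC 16 of 20 fell and 2 rose, beside 24.1% and 24.8% of all genes.

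Enzymes of glutamine, serine and glycine use gave 6 of 11 lower and 0 higher both with TSA alone and in the combination, with medians of -0.57 and -0.60, beside 3.86% and 8.08% of all genes called lower. The aspartate aminotransferase GOT1 fell by 1.09 with TSA alone (adjusted p = 0.0195 from limma) and by 1.04 in the combination, and the glutaminase GLS2 by 1.05 and 1.15. GPT2, an alanine aminotransferase, fell by 0.85 with TSA alone, and AMT of the glycine cleavage system by 0.93 in the combination. With TSA alone 0 were called without any 1 of the siCONT or siCONT + TSA arrays (0.181% to 0.384% of all probes), and in the combination 3 were called without either siCONT array (7.11% and 6.98%). With 5-aza-dC 8 of 12 fell and 2 rose, beside the same 24.1% and 24.8%.

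SLC7A11 is also a known target of NRF2, the regulator of antioxidant genes. Of 12 tested genes of glutathione synthesis and the NRF2 response, 0 were called lower and 3 higher both with TSA alone and in the combination, with medians of 0.082 and 0.058, beside 6.97% and 16.1% of all genes called higher. The haem oxygenase HMOX1 rose by 0.51 with TSA alone (adjusted p = 0.025 from limma) and by 0.55 in the combination. The glutathione reductase GSR rose by 0.52 with TSA alone and KEAP1, the inhibitor of NRF2, by 0.66 in the combination. Fits without a siCONT array called fewer of these genes both with TSA alone and in the combination, and also fewer of all probes. Fits without a siCONT + TSA array did so with TSA alone. Fits without a siUHRF1 array called more of these genes and more of all probes in both comparisons. With 5-aza-dC 2 of 12 rose and 3 fell, beside 24.8% and 24.1% of all genes.

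Of 17 tested genes through which mTORC1 senses amino acids, 3 were lower and 1 higher with TSA alone, and 3 lower and 4 higher in the combination. Of all genes, 3.86% were lower and 6.97% higher with TSA alone, and 8.08% lower and 16.1% higher in the combination. SESN2, a leucine sensor also counted in the amino acid response, fell by 1.26 and 1.84, and its relative SESN1 by 1.02 and 0.80. LAMTOR1, which anchors the complex on the lysosome, rose by 0.54 and 0.70. Fits without an array of siCONT or siCONT + TSA called fewer of these genes in both comparisons, and also fewer of all probes. The same held in the combination for the fit without siUHRF1 + TSA replicate 1. With 5-aza-dC 5 of 18 fell and 3 rose, beside 24.1% and 24.8% of all genes. In siUHRF1 against siCONT limma called 0 genes of any of these lists, with 4 of 17 other transporters, 2 of 12 glutathione and NRF2 genes, 0 of 11 enzymes and 3 of 17 sensing genes at an unadjusted p below 0.05, beside 8.93% of all genes.

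**Figure D5:**
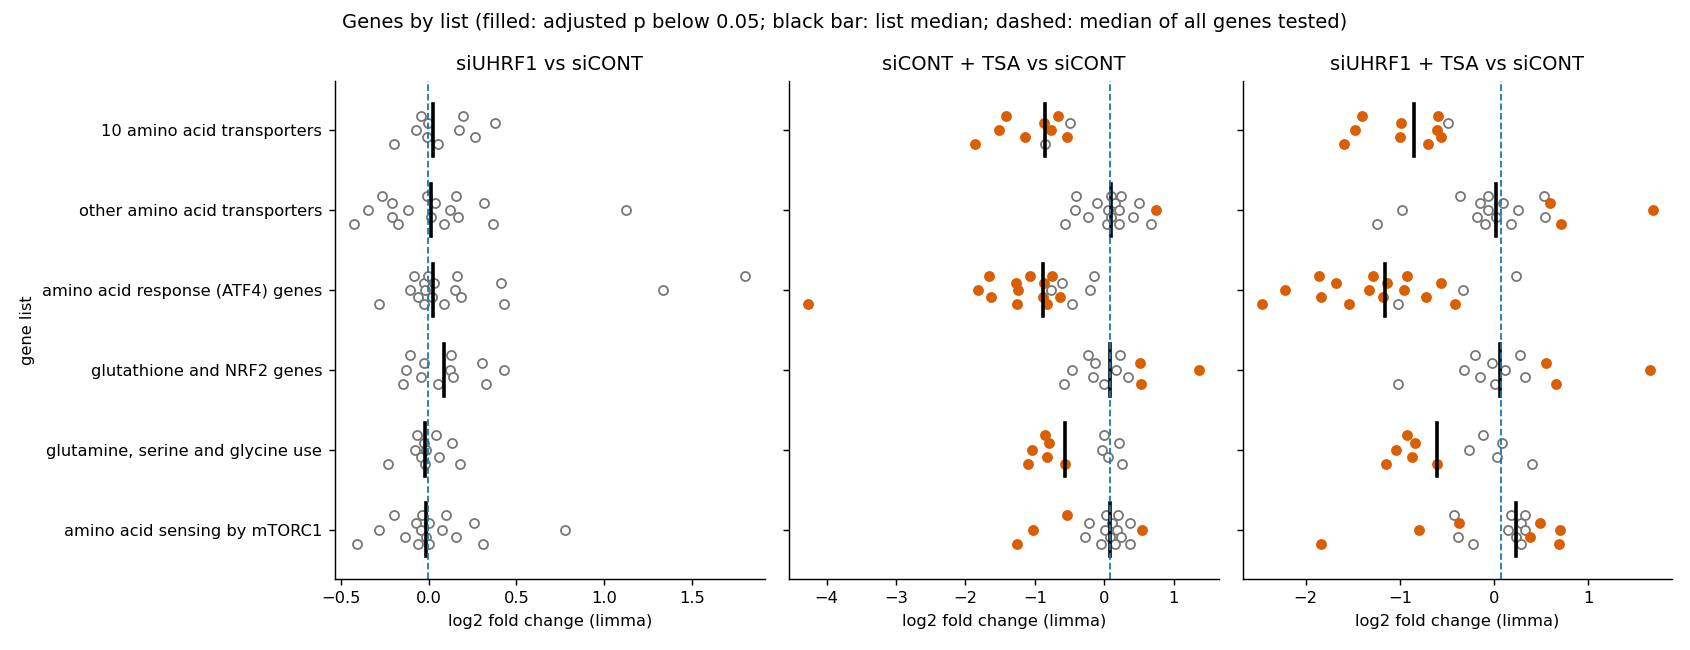
Log2 fold changes from limma (x axis, with its own range in each panel) are drawn for the genes of each list (y axis) in siUHRF1, siCONT + TSA and siUHRF1 + TSA against siCONT, with filled points for an adjusted p below 0.05, a black bar at the median of the list and a dashed line at the median of all genes tested. With TSA alone the medians of the 10 transporters and of the amino acid response lie at -0.86 and -0.88, that of the other amino acid transporters at 0.10, and in siUHRF1 no point is filled.

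For the 3 members with the widest range over the siRNA groups, the genes with the most similar values were found among 11760 genes above background on all 8 arrays, by the root mean square difference of the values relative to the siCONT mean. Nearest to SLC7A11 were SLC1A4 at 0.27, the secreted stress cytokine GDF15 at 0.30 and OR2A9P at 0.31. Nearest to SLC1A4 were GADD45A, a DNA damage response gene, at 0.17, the cysteinyl-tRNA synthetase CARS at 0.19 and MTHFD2 of mitochondrial folate metabolism at 0.21. SLC6A9 was closest to MOCOS at 0.17, GTPBP2 at 0.18 and TRIB3 at 0.19. With TSA alone these neighbours had log2 fold changes of -2.17 (OR2A9P) to -1.24 (MTHFD2), which their choice by distance over the same arrays fixed. The 8 arrays share 1 slide and 2 of them are the reference, so these distances are a description.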

How the data were processed

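The deposited files hold the scanner intensity of each spot, which the authors extracted with Feature Extraction 10.7.3.1 (per the file headers and the submitters' processing notes), after subtraction of background and detrending and with no normalization between arrays. A deposited value table holds the same intensities, rounded. The study's methods name GeneSpring GX for the arrays and t tests or ANOVA for continuous variables. Log2 signals were shifted by the 75th percentile of each array, spots flagged as outliers were left out and spots of a probe were averaged. The probes that both replicates of some siRNA group detected well above background (23727), or with 5-aza-dC added (27178), were fitted with limma 3.58.1 (lmFit and eBayes) in R 4.3.3 on 8 or 9 arrays, with adjusted p-values over all of them. Alternatives were normexp background correction, quantile and spike-in scaling, the value table, other filters, outlier spots kept, a replicate block, another prior, other probes, the methods' t-test and each array left out. The procedure was tested on simulated data with independent noise and the same spread in every group. These arrays differ from that setting, because replicates of the depleted groups carried different siRNAs and spread more widely. The members and lists were chosen with earlier results of these data known. Named genes are all members with every probe, UHRF1, the markers, of each list the 3 called genes with the largest change in each comparison with siCONT, and the 3 nearest neighbours of the 3 members with the widest range, and ATF4 was added after its values were seen. Promoter sequences and gene positions came from RefSeq tables (GRCh38.p14). Of the genes this rule names, 2 are not reported here.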

Additional observations from a re-analysis of the deposited data

How the results depend on the processing

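With 2 arrays a group, the number of arrays limits every value. Across the alternatives, the 10 genes kept their direction in 210 of 210 values with TSA alone (-1.98 to -0.47), in 210 of 210 in the combination and in 179 of 180 with 5-aza-dC, but in 198 of 210 for siUHRF1 against siCONT, 196 of 210 for siUHRF1 + TSA against siCONT + TSA and 167 of 190 for the interaction. Alternatives that changed only the filter, the prior, the test or the term for the siRNA left these values as they were. Leaving out an array of a group not compared also left them unchanged. The tallies therefore count the same values several times and are not separate checks. Members called numbered 5 with spike-in scaling (2.97% of all probes) and 4 with no filter on dim probes, which tests 50599 probes (1.32%), for TSA alone, against 8 (10.4%). By the methods' t-test after Benjamini-Hochberg 10 members were called with TSA alone (18.3% of all probes) and 1 in the combination (1.04%). It called 0 in siUHRF1 + TSA against siUHRF1 (0.00421%), and the fall of UHRF1 (-2.47) was not called. At an unadjusted p below 0.05, that test called 1 member in siUHRF1 against siCONT (7.78% of all probes) and 2 in siUHRF1 + TSA against siCONT + TSA (15.3%), and limma called 1 in each (8.91% and 17.4%). A term for the siRNA, chosen after seeing the data, called 1 in the latter (11.3% of all probes) and 10 in the combination (41.5%). The cause was not tested. With each array left out, members called ranged from 0 to 10 with TSA alone (0.181% to 19.7% of all probes), 3 to 10 in the combination (6.98% to 32.6%), 6 to 10 in siUHRF1 + TSA against siUHRF1 (7.02% to 27.1%) and 8 to 9 with 5-aza-dC (34.4% to 55.5%), and stayed at 0 to 0 in the other 3 comparisons, and UHRF1 ranged from -2.61 to -2.33. The sign changed with 5-aza-dC for SLC38A2 under spike-in scaling (-1.77), which moved the median of all probes to -1.87, and in the fit of the SLC38A1 probe that is not above background in siCONT (0.69, not called), which gives no measured size. Replicate numbers do not pair these samples, since the arrays of siCONT and siUHRF1 deviated with a correlation of -0.021, whereas arrays with the same siRNA against UHRF1 did with 0.56. With a replicate block 9 members were called with TSA alone (8.72% of all probes), 9 in the combination (22.4%) and 8 with 5-aza-dC (46.5%). Under spike-in scaling 45.6% of the probes called with TSA alone were higher, against 62.1%, and 52.2% in the combination, against 64.5%. With 5-aza-dC 7.05% were, against 49.3%. Quantile normalization gave 52.9% in the combination and 51.6% in siUHRF1 + TSA against siUHRF1, against 64.3%, and normexp 49% with TSA alone and 33.1% with 5-aza-dC. Slide or scan could not be fitted as a block, because all siRNA arrays share them, and the t-test was not run for the interaction or for 5-aza-dC.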
